A study of Mus musculus with 16 samples.

Results

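The genes described here are 10 regulators of the G1 phase of the cell cycle, measured in mouse embryonic stem (ES) cells: the D-type cyclins Ccnd1, Ccnd2 and Ccnd3, the kinases Cdk2, Cdk4 and Cdk6, the kinase inhibitor Cdkn1b, and the pocket proteins Rb1, Rbl1 and Rbl2. They were taken as every probe set on the array that is assigned to exactly 1 gene symbol and whose symbol is one of these. That gave 23 probe sets for the 10 genes, out of 20380 probe sets for 12393 genes. The genes were taken to be chosen by the measured differences of Ccnd1, Ccnd2 and Ccnd3 with Tgif1 knockdown or on arrays labelled Tgif1 OE. For all 10, those comparisons are therefore a description: no p is given for them and nothing is read from how many passed a threshold. The choice was made with earlier results of these data known, so p-values given for these genes in other comparisons are not independent of it.

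The study set out to show what the homeodomain repressors Tgif1 and Tgif2 do in ES cells. J1 ES cells, a mouse line kept here on gelatin in serum with leukemia inhibitory factor (LIF), were used for all 16 Affymetrix Mouse 430A 2.0 arrays. The groups were Tgif1 KD (a knockdown, 2 arrays) with shControl (2 arrays), and Tgif1 OE and Tgif2 OE (overexpression, 4 arrays each) with BirA control (4 arrays), whose genotype label is overexpression of the biotin ligase BirA. The labels name no hairpin sequence, no promoter for the overexpressed genes and no clone, and nothing in them tells separate cultures from repeat arrays, so each p-value measures the spread between these samples only.

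D-type cyclins bind Cdk4 and Cdk6, and the complexes phosphorylate the pocket proteins Rb1, Rbl1 and Rbl2, which otherwise hold back E2F transcription factors. Cdk2, with cyclin E, carries the phosphorylation further, and Cdkn1b, which encodes p27, inhibits Cdk2 complexes. Mouse ES cells are known for a short G1 phase, with high Cdk2 activity and pocket proteins that are largely phosphorylated.

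Values are the authors' log2 intensities, and values after a plus-minus sign are standard errors of a log2 difference from a limma fit to all 16 arrays unless an SD is named. A gene with several probe sets is given by the one with the highest mean, and the signals of different probe sets are not set against each other. In bulk RNA, fewer cells of a type and less RNA per cell cannot be told apart. The Tgif1 probe set averaged 7.29 ± 0.25 on Tgif1 KD against 10.69 ± 0.04 on shControl (SD, n = 2 each; log2 difference -3.39, limma adjusted p = 3.88e-11). It was lower on the arrays labelled Tgif1 OE than on BirA control (-0.58, limma adjusted p = 5.52e-05), and the Tgif2 probe set did not pass the test on the arrays labelled Tgif2 OE (0.11, limma adjusted p = 0.208), so these 8 arrays are named by their labels throughout. The 6 ES cell markers (Pou5f1, Sox2, Nanog, Dppa5a, Zfp42 and Utf1) averaged between 12.31 and 12.98 log2 over all arrays, and their levels by group are given with the other markers.

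Promoters are shown for Ccnd3 and Cdkn1b, the 2 genes that differed from control in opposite directions without overlap in the knockdown and on the arrays labelled Tgif1 OE, and for Rbl1, a pocket protein gene known as a target of E2F. The windows hold 250 bases before and 50 after a RefSeq transcript start (GRCm38.p6, RefSeq's promoter table), with motif matches in capitals. TGTCA is the core of the sequence that TGIF homeodomains bind. TTCGCGC is one of the 4 words of the E2F motif that were searched on both strands, none of which contains TGTCA.
Ccnd3, chr17:47504801-47505100, plus strand: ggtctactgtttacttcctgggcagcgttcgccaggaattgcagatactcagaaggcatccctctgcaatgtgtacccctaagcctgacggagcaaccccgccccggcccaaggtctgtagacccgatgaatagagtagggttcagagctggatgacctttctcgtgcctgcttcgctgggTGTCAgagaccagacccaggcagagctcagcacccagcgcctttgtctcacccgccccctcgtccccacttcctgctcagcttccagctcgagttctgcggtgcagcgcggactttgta
Ccnd3, chr17:47593217-47593516, plus strand: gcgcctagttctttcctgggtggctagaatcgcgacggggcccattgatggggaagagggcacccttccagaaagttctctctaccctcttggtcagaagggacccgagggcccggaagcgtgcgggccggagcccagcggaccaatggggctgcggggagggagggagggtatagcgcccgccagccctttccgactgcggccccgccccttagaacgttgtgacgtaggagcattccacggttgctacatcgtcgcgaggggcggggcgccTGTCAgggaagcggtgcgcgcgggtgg
Cdkn1b, chr6:134920151-134920450, plus strand: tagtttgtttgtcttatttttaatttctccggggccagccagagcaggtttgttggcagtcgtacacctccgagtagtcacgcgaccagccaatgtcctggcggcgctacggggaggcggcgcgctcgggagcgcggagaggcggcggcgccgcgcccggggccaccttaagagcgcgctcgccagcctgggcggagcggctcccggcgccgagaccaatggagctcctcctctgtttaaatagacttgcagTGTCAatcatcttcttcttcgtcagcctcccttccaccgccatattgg
Rbl1, chr2:157204485-157204784, minus strand: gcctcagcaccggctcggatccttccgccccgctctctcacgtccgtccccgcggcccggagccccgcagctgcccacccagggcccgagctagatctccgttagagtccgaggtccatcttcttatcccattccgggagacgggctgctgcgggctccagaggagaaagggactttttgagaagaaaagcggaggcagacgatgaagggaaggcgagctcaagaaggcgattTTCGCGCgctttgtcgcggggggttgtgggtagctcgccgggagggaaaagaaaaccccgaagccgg

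The TGTCA in Ccnd3 began 69 bases before the start of the first window and 24 bases after the start of the second, and that in Cdkn1b began 3 bases after the start. The TTCGCGC of Rbl1 began 17 bases before its start. Across 7 of the 10 genes with an entry in the table (8 windows), TGTCA also stood in Cdk4 and Cdk6, on the opposite strand, and the E2F word TTCCCGC stood in Cdk2, as did TTGCCGC, on the opposite strand. The fourth, TTGGCGC, stood in none of the 8 windows. Of all 32851 promoters, 45.4% held TGTCA, 1.59% held TTCGCGC and 9.57% held at least 1 of the 4 E2F words. A match in these windows describes the letters and is not a binding site shown by these data.

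The cyclin genes split in the knockdown. Tgif1 KD arrays read lower than shControl in Ccnd2, by more than in any other of the 10 genes, and lower in Ccnd1, and they read higher in Ccnd3. Ccnd3 was below every BirA control array on the arrays labelled Tgif1 OE, while Ccnd1 and Ccnd2 overlapped BirA control. None of the D-type cyclin genes passed the test on the arrays labelled Tgif2 OE at its own highest probe set.

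Ccnd2 (probe set 1434745_at) read 4.88 and 5.38 on Tgif1 KD against 8.49 and 8.44 on shControl, a log2 difference of -3.34 ± 0.23 that left 9.91% of the control signal. It read 9.14, 8.99, 8.96 and 9.04 on the arrays labelled Tgif1 OE and 9.03, 9.18, 9.09 and 9.23 on those labelled Tgif2 OE, against 8.31, 8.57, 9.26 and 9.06 on BirA control. The Tgif1 KD arrays lay far below all others, and replicates 1 and 2 of BirA control lay below all 8 arrays labelled as overexpression, whereas its replicate 4 lay among them and its replicate 3 above them. Ccnd2 encodes cyclin D2 and has 7 probe sets, each of which read lower on Tgif1 KD than on shControl without overlap, by -3.39 to -1.32, as did 37.7% of all probe sets. On Tgif1 KD, 1416123_at read 3.09 and 3.08 and 1416124_at read 3.29 and 3.21, where the lowest value of all arrays was 2.19. Background signal may limit the size of the difference at these dim probe sets, which was not tested.

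The same 7 probe sets differed by 0.14 to 0.31 between the arrays labelled Tgif1 OE and BirA control, with overlap in all 7, while 21.6% of all probe sets did not overlap there. Against BirA control, the arrays labelled Tgif2 OE were higher by 0.33 ± 0.16 at 1434745_at, which did not pass the test (limma adjusted p = 0.124). In the fit over every probe set, 3 of the 7 were higher at an adjusted p under 0.05, against 25.3% of all probe sets: 1416124_at at 0.64 ± 0.14 (limma adjusted p = 0.00324), 1416123_at at 0.44 ± 0.11 (0.00674) and 1448229_s_at at 0.47 ± 0.14 (0.0199). The median difference over all genes was 0.12 in this comparison. Within replicates 1 and 2 the Ccnd2 difference at 1434745_at was 0.66, and within replicates 3 and 4 it was 0.00, so the replicates differed by more than the mean difference.

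Ccnd1 (1417420_at), which encodes cyclin D1, read 8.995 and 9.15 on Tgif1 KD against 10.14 and 10.14 on shControl, a log2 difference of -1.06 ± 0.14 that left 47.8% of the control signal. Its other probe sets, 1417419_at and 1448698_at, differed by -1.17 and -0.95, so all 3 were lower without overlap. It read 10.80, 10.76, 10.99 and 11.03 on the arrays labelled Tgif1 OE and 10.62, 10.68, 10.88 and 10.88 on those labelled Tgif2 OE, against 10.46, 10.56, 10.87 and 10.83 on BirA control. These 3 groups overlapped, and in each of them replicates 3 and 4 read higher than replicates 1 and 2. The differences were 0.21 ± 0.10 for the arrays labelled Tgif1 OE and 0.08 ± 0.10 for those labelled Tgif2 OE against BirA control, of which the second did not pass the test (limma adjusted p = 0.549).

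Ccnd3 (1415907_at, its only probe set), which encodes cyclin D3, read 11.70 and 11.68 on Tgif1 KD against 10.93 and 10.87 on shControl, a log2 difference of 0.79 ± 0.17 or 1.73-fold. It read 8.99, 8.98, 8.65 and 8.60 on the arrays labelled Tgif1 OE and 9.96, 10.02, 9.47 and 9.49 on those labelled Tgif2 OE, against 9.98, 10.03, 10.004 and 9.95 on BirA control. The arrays labelled Tgif1 OE were lowest of all 16, at 43.9% of the BirA control signal (-1.19 ± 0.12), and this held within replicates 1 and 2 (-1.02) and within replicates 3 and 4 (-1.35). The pairs parted on the arrays labelled Tgif2 OE, where replicates 1 and 2 differed from BirA control by -0.02, and replicates 3 and 4 by -0.50.

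Over its 4 replicates the Ccnd3 difference on the arrays labelled Tgif2 OE was -0.26 ± 0.12, or -0.38 relative to the median of all genes. It did not pass the test (limma adjusted p = 0.115), and it did with replicate number as a block (0.0290) and after quantile normalization of the columns (0.0258), but not over array pair means (0.326). Set against each other, Tgif1 OE arrays by label were lower in Ccnd3 than Tgif2 OE arrays by 0.93 ± 0.12, without overlap. This difference rests on the same Tgif1 OE values that are taken to have chosen the gene.

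**Figure D1:**
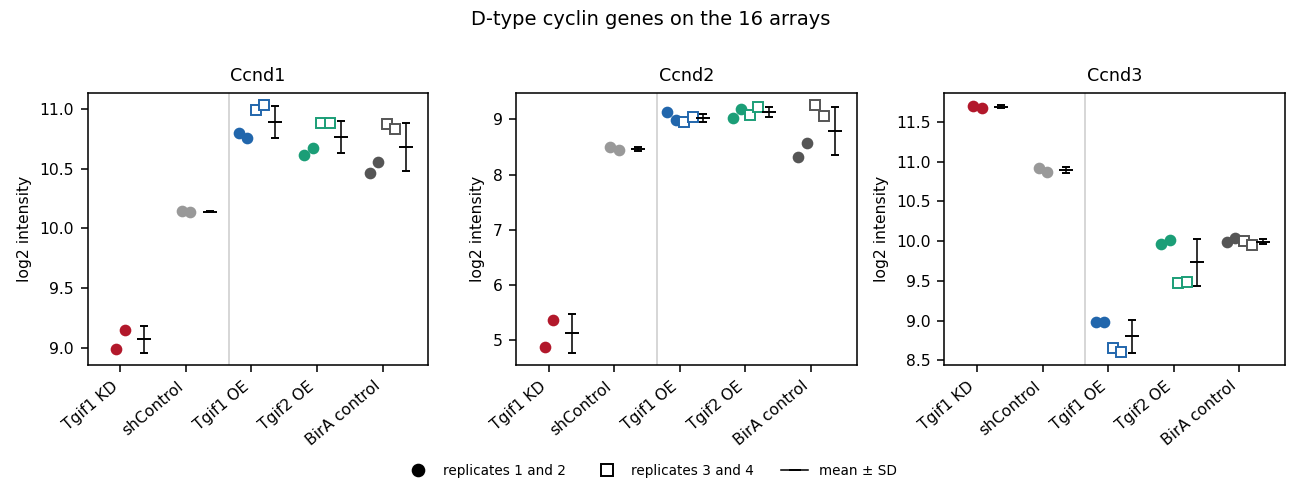
Log2 intensity of Ccnd1, Ccnd2 and Ccnd3 (vertical axes, 1 probe set per gene) on each of the 16 arrays by group, with filled circles for replicates 1 and 2, open squares for replicates 3 and 4, and a dash and bar for the mean ± SD. The Tgif1 KD arrays sit lowest in Ccnd1 and Ccnd2 and highest in Ccnd3, and the arrays labelled Tgif1 OE sit lowest in Ccnd3, between 8.60 and 8.99.

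Cdkn1b was lower on both sets of arrays labelled as overexpression than on BirA control, and higher on Tgif1 KD than on shControl. Its probe set 1434045_at read 8.69 and 8.44 on Tgif1 KD against 8.10 and 8.10 on shControl (0.47 ± 0.22). It read 7.20, 6.85, 7.20 and 7.21 on the arrays labelled Tgif1 OE and 6.68, 6.25, 6.98 and 6.88 on those labelled Tgif2 OE, against 7.75, 7.52, 7.86 and 8.13 on BirA control. All 8 arrays labelled as overexpression lay below all 4 BirA control arrays.

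Against BirA control, Cdkn1b fell by 1.12 ± 0.15 log2 on the arrays labelled Tgif2 OE, to 46.1% of the control signal (limma adjusted p = 6.72e-05), and relative to the median of all genes by 1.24. It passed the test in each of 20 alternative settings, with differences between -1.22 and -0.65. The difference was -1.17 within replicates 1 and 2 and -1.07 within replicates 3 and 4. These settings reuse the same arrays, and the BirA control arrays also entered the comparison taken to have chosen the genes. The p-values are therefore not independent of that choice. The difference on the arrays labelled Tgif1 OE was -0.70 ± 0.15. These comparisons share the BirA control arrays, and the difference of Tgif1 OE from Tgif2 OE by label (0.42 ± 0.15) did not pass the test (limma adjusted p = 0.0670), but did with replicate number as a block (0.00364), and again did not over array pair means (0.245). The second, dimmer probe set 1419497_at differed less: 0.23 ± 0.11 on Tgif1 KD minus shControl, -0.23 ± 0.08 for the arrays labelled Tgif1 OE, and -0.18 ± 0.08 for those labelled Tgif2 OE (limma adjusted p = 0.104). There both groups labelled as overexpression overlapped BirA control.

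Of the kinase genes, none passed the test on the arrays labelled Tgif2 OE. Cdk4 (1422441_x_at), the partner of the D-type cyclins, was the steadiest of the 10 genes, with group means that spanned 0.11 log2. It read 11.53 and 11.47 on Tgif1 KD against 11.47 and 11.50 on shControl (0.01 ± 0.07). Its values were 11.46, 11.40, 11.51 and 11.46 on the arrays labelled Tgif1 OE and 11.56, 11.50, 11.50 and 11.55 on those labelled Tgif2 OE, against 11.58, 11.51, 11.62 and 11.58 on BirA control. At this probe set all groups overlapped with their controls. On Tgif1 KD minus shControl the other probe sets of Cdk4 differed by -0.06 (1422439_a_at) and, without overlap, by -0.05 (1422440_at). At 1422441_x_at the Tgif2 OE difference of -0.05 ± 0.05 did not pass the test (limma adjusted p = 0.446), and it did after quantile normalization (-0.19, 0.00994).

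Cdk6 (1460291_at), the other partner of the D-type cyclins, read 4.93 and 4.60 on Tgif1 KD against 4.49 and 4.29 on shControl (0.38 ± 0.19). It read 4.72, 4.59, 4.88 and 5.02 on the arrays labelled Tgif1 OE and 4.84, 4.82, 5.30 and 5.36 on those labelled Tgif2 OE, against 4.96, 5.08, 5.23 and 5.17 on BirA control. The arrays labelled as overexpression overlapped BirA control in both cases, with differences of -0.31 ± 0.13 for Tgif1 OE and -0.03 ± 0.13 for Tgif2 OE (limma adjusted p = 0.878 for the second). For Tgif1 OE minus Tgif2 OE the difference of -0.28 ± 0.13 did not pass the test (limma adjusted p = 0.155), did with the replicate block (0.0175) and did not over array pair means (0.447).

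Cdk2 (1416873_a_at), the partner of cyclin E, read 9.07 and 9.23 on Tgif1 KD against 9.71 and 9.73 on shControl (-0.57 ± 0.27). Its values were 9.80, 9.78, 9.25 and 9.29 on the arrays labelled Tgif1 OE and 10.02, 10.03, 9.41 and 9.37 on those labelled Tgif2 OE, against 10.03, 10.06, 9.45 and 9.43 on BirA control. In all 3 of these groups replicates 1 and 2 lay above replicates 3 and 4, by more than any difference between the groups. The Tgif2 OE difference was -0.04 ± 0.19 (limma adjusted p = 0.898). Tgif1 OE was lower than Tgif2 OE by 0.17 ± 0.19, which did not pass the test (limma adjusted p = 0.557), did with the replicate block (0.0211) and did not over array pair means (0.745).

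**Figure D2:**
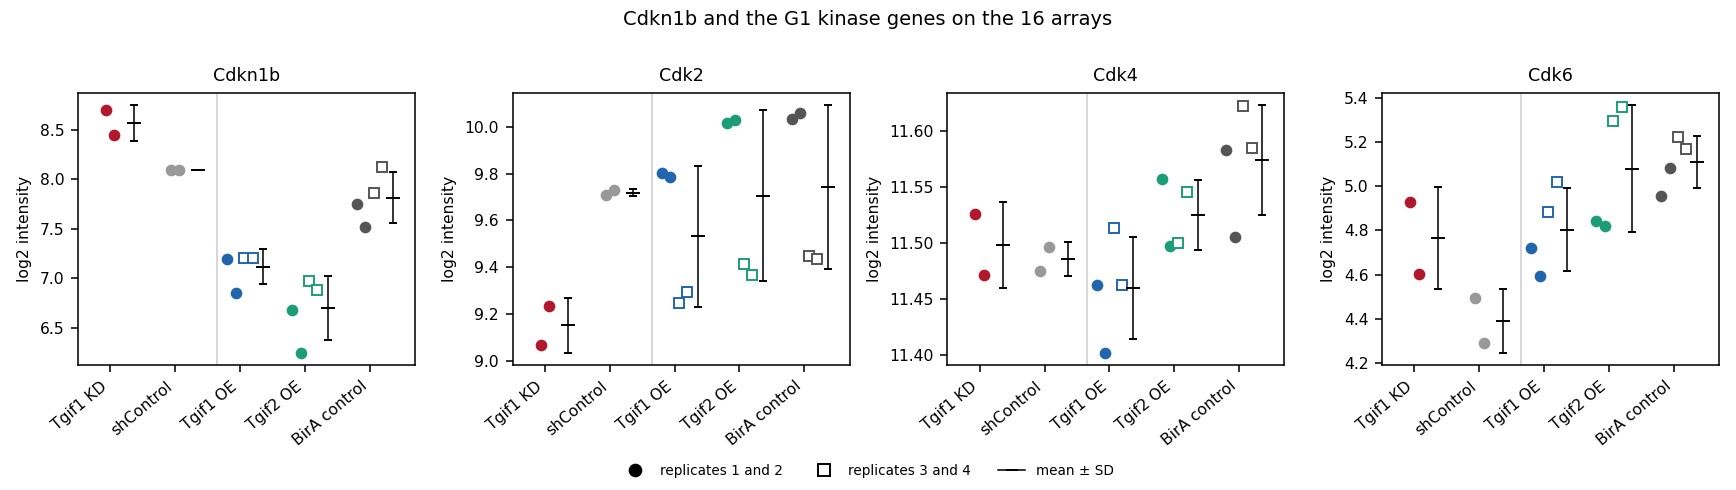
Log2 intensity of Cdkn1b, Cdk2, Cdk4 and Cdk6 (vertical axes, each with its own range) on each of the 16 arrays by group, with symbols for replicates 1 and 2 and for replicates 3 and 4, and the mean ± SD. All arrays labelled Tgif1 OE or Tgif2 OE lie below BirA control in Cdkn1b, and in Cdk2 the replicates split within each group of 4.

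The pocket protein genes read higher on Tgif1 KD than on shControl, all 3 without overlap, as did 30% of all genes. Rb1 (1417850_at), the retinoblastoma gene, read 8.29 and 8.38 on Tgif1 KD against 7.09 and 7.06 on shControl, a log2 difference of 1.25 ± 0.16 or 2.38-fold. It read 7.32, 7.12, 7.06 and 7.02 on the arrays labelled Tgif1 OE and 6.66, 6.78, 7.21 and 7.17 on those labelled Tgif2 OE, against 6.89, 6.72, 6.73 and 6.86 on BirA control. The arrays labelled Tgif1 OE were above BirA control without overlap (0.33 ± 0.11), and those labelled Tgif2 OE lay on both sides of it. Within replicates 1 and 2 the Tgif2 OE difference was -0.08 and within replicates 3 and 4 it was 0.39, and over all 4 it was 0.16 ± 0.11 (limma adjusted p = 0.290).

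Rbl1 (1424156_at), which encodes p107, read 8.79 and 8.76 on Tgif1 KD against 8.21 and 8.16 on shControl (0.59 ± 0.09). Its values were 7.87, 7.95, 7.93 and 7.95 on the arrays labelled Tgif1 OE and 7.68, 7.79, 7.95 and 7.94 on those labelled Tgif2 OE, against 7.70, 7.59, 7.71 and 7.75 on BirA control. The Tgif1 OE arrays lay above BirA control (0.24 ± 0.06) and the Tgif2 OE arrays overlapped it. The Tgif2 OE difference of 0.15 ± 0.06 did not pass the test (limma adjusted p = 0.0736), did with the replicate block (0.0465) and did not over array pair means (0.291). At the second probe set, 1425166_at, the difference was 0.18 ± 0.26 on Tgif1 KD minus shControl, -0.12 ± 0.18 for the arrays labelled Tgif1 OE and -0.23 ± 0.18 for those labelled Tgif2 OE (limma adjusted p = 0.373), so the probe sets disagreed in direction in the overexpression arm.

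Rbl2 (1425981_a_at), which encodes p130, read 5.72 and 5.70 on Tgif1 KD against 4.78 and 5.11 on shControl (0.77 ± 0.40). It read 4.75, 4.86, 4.28 and 4.26 on the arrays labelled Tgif1 OE and 4.51, 4.41, 3.87 and 4.15 on those labelled Tgif2 OE, against 5.64, 5.84, 4.52 and 4.40 on BirA control. The BirA control arrays covered the widest range of any group for any of the 10 genes (SD 0.75, n = 4), with replicates 1 and 2 above every array labelled as overexpression and replicates 3 and 4 among them. Rbl2 fell by 0.86 ± 0.28 on the arrays labelled Tgif2 OE (limma adjusted p = 0.0269). The adjusted p was above 0.05 when BirA control replicate 1 (0.0872) or 2 (0.0891) or Tgif2 OE replicate 3 (0.0778) or 4 (0.0570) was left out, with array pairs within each group as a random block (0.0502) and over array pair means (0.152), and the difference was -1.28 within replicates 1 and 2 and -0.45 within replicates 3 and 4. The Tgif1 OE difference was -0.56 ± 0.28. At the second probe set, 1418146_a_at, the Tgif2 OE difference was -0.31 ± 0.14 and did not pass the test (limma adjusted p = 0.100).

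**Figure D3:**
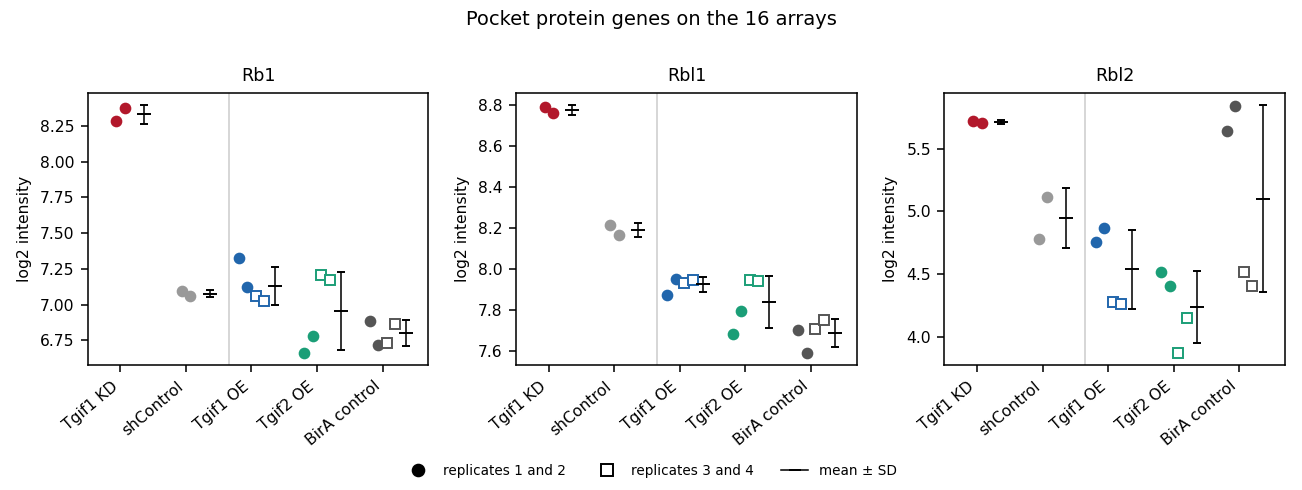
Log2 intensity of Rb1, Rbl1 and Rbl2 (vertical axes) on each of the 16 arrays by group, with symbols for replicates 1 and 2 and for replicates 3 and 4, and the mean ± SD. Tgif1 KD lies above shControl in each panel, and BirA control replicates 1 and 2 stand apart in Rbl2, at 5.64 and 5.84.

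As a count only, 5 of the 10 genes had an adjusted p under 0.05 on Tgif1 KD minus shControl, where 25.4% of all genes were called, 12.5% higher and 12.9% lower. In 9 of the 10, all but Cdk4, the groups did not overlap, and this held for 69.2% of all genes. On Tgif1 OE arrays by label the count was 4 of the 10, where 20.9% of all genes were called, 11.4% higher and 9.51% lower, and 4 of the 10 (Ccnd3, Cdkn1b, Rb1 and Rbl1) did not overlap BirA control, against 23.1% of all genes. Nothing is read from these counts, since values of these comparisons are taken to have chosen the genes.

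On Tgif2 OE arrays by label, 2 of the 10 (Cdkn1b and Rbl2) were lower than on BirA control and 0 were higher, where 35.4% of all genes were called, 28.7% higher and 6.69% lower. Cdkn1b alone did not overlap, against 32.6% of all genes. After quantile normalization 4 of the 10 were lower, with Ccnd3 and Cdk4 added, and 0 were higher. Of all 12393 genes, 1616 were then lower and 1715 higher. The median size of the difference was 0.15 log2 over the 10 genes and 0.17 over all genes. In Tgif1 OE minus Tgif2 OE, Ccnd3 was the 1 gene called of the 10, against 19.7% of all genes, and it was lower, as were 17.4%. Nothing is read from that call, since it rests on the Tgif1 OE values that are taken to have chosen the gene. The Tgif2 OE counts share BirA control arrays with that choice and are given as a description.

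**Figure D4:**
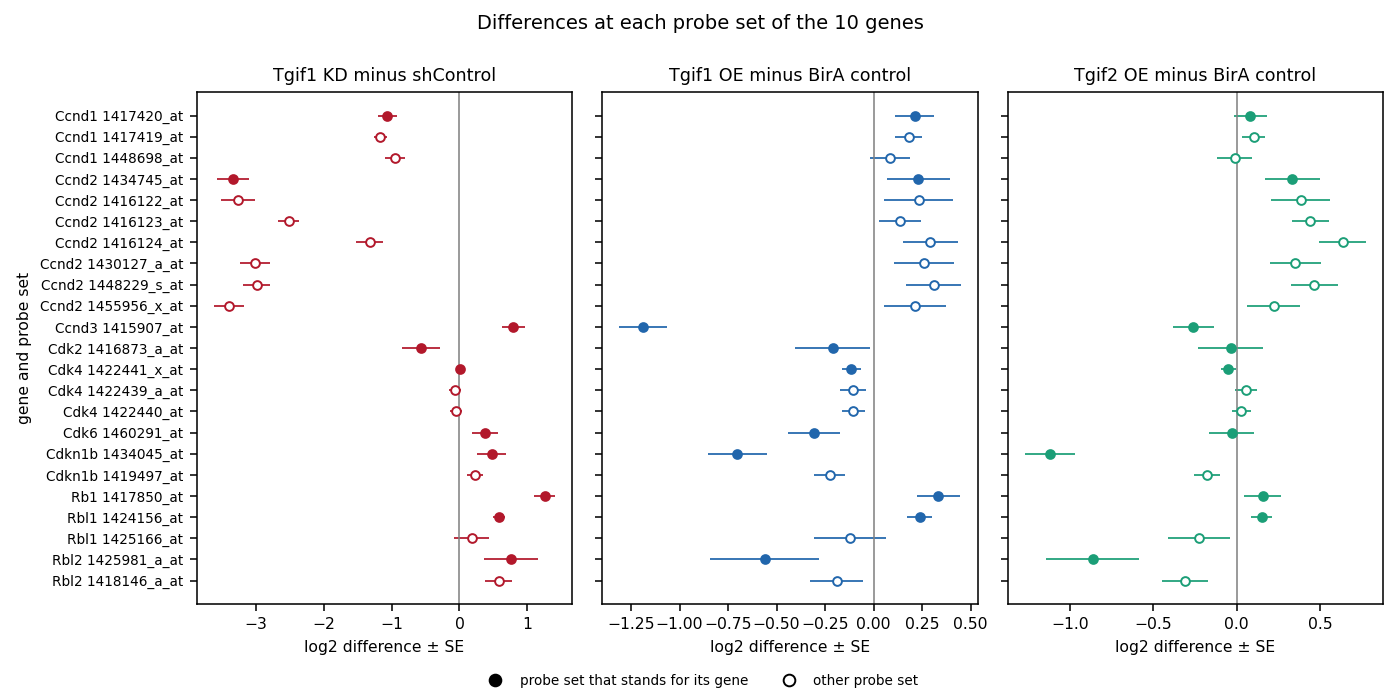
Log2 difference ± SE (horizontal axes, a separate range in each panel) at each of the 23 probe sets for Tgif1 KD minus shControl, Tgif1 OE minus BirA control and Tgif2 OE minus BirA control, with filled points for the probe set that stands for its gene. All 7 probe sets of Ccnd2 lie between -3.39 and -1.32 on Tgif1 KD minus shControl, and the 2 probe sets of Cdkn1b, Rbl1 and Rbl2 differ in size.

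The control groups of the knockdown and overexpression arms also differed in these genes. Ccnd3 was higher on shControl than on BirA control by 0.90 ± 0.15 (limma adjusted p = 7.32e-04), and Rbl1 by 0.50 ± 0.08 (4.20e-04). Ccnd1 was lower on shControl by 0.54 ± 0.12 (0.00578), and Cdk6 by 0.72 ± 0.16 (0.00580). These 4 of the 10 were called, against 21.1% of all genes (13.6% higher and 7.5% lower), and 6 of the 10 did not overlap, against 43.8% of all genes. The Ccnd1 and Cdk6 calls were lost without shControl replicate 2 (0.0577 and 0.0922), and the Rbl1 call when its probe sets were averaged (0.157). Arm and control construct cannot be told apart in this comparison, so a level in one arm was not read as a change from the other. Both control groups also entered the comparisons that are taken to have chosen the genes. These p-values and counts are therefore not independent of that choice and are given as a description.

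In order of mean level, Ccnd1 was highest on the arrays labelled Tgif1 OE, then Tgif2 OE, BirA control, shControl and Tgif1 KD, and the shControl and Tgif1 KD groups each overlapped no neighbour. Ccnd2 began with Tgif2 OE and Tgif1 OE, then BirA control and shControl, and only the step down to Tgif1 KD was without overlap. Ccnd3 began with Tgif1 KD and shControl, then BirA control, Tgif2 OE and Tgif1 OE, with overlap only between BirA control and Tgif2 OE. Ccnd1 and Ccnd2 were thus lowest, and Ccnd3 highest, on Tgif1 KD. Cdkn1b followed the order Tgif1 KD, shControl, BirA control, Tgif1 OE, Tgif2 OE, with overlap between the controls and between Tgif1 OE and Tgif2 OE. Rb1 and Rbl1 were highest on Tgif1 KD, without overlap with the next group, and lowest on BirA control, which overlapped Tgif2 OE.

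The genes whose levels followed each cyclin most closely over the 16 arrays, as a description with no p because the arrays form 5 groups, differed between the cyclins. For Ccnd1 they were Ctps, which encodes a CTP synthase, with Pearson's r of 0.99, and Kbtbd2 and Cdk2ap1, a Cdk2-associated protein, with 0.98 each, and the most opposed was Dapk1, a death-associated protein kinase, with -0.99. For Ccnd2 they were Prodh, a proline dehydrogenase, Myc, the transcription factor, and Znrd2, with 0.98 each, and the most opposed was Magea4 with -0.98. For Ccnd3 they were Psmd5 with 0.99 and Xpnpep1 and Prr13 with 0.98 each, and the most opposed was Cdkn1c, the kinase inhibitor p57, with -0.98. Myc averaged 8.24 on Tgif1 KD against 9.32 on shControl, and Cdkn1c averaged 9.02 on the arrays labelled Tgif1 OE against 7.84 on BirA control.

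The other genes of the pathway were taken from 5 lists with 52 genes, 46 of them measured. The lists were chosen with earlier results of these data known, so their counts and adjusted p-values are a description, not an independent test. Of the 46, 9 rose and 11 fell on Tgif1 KD, 6 rose and 6 fell on the arrays labelled Tgif1 OE, and 19 rose and 5 fell on those labelled Tgif2 OE, where 5 rose and 7 fell after quantile normalization. Over all genes, 12.5% rose and 12.9% fell on Tgif1 KD, 11.4% rose and 9.51% fell on the arrays labelled Tgif1 OE, and 28.7% rose and 6.69% fell on those labelled Tgif2 OE. Among the CDK inhibitors other than Cdkn1b, 5 of 6 rose on Tgif1 KD relative to shControl and 0 fell, against 12.5% and 12.9% of all genes. Cdkn2c (p18) averaged 6.39 against 5.69 (0.70 ± 0.15, limma adjusted p = 0.00321), Cdkn2b (p15) 6.38 against 5.74 (0.63 ± 0.21, 0.0353), and Cdkn1a (p21) 10.03 against 9.45 (0.59 ± 0.12, 0.00235). Cdkn2d (p19 of the INK4 family) rose by 0.53 (2.55e-05) and Cdkn2a by 0.51 (0.0149). The median of these 6 was 0.56, against -0.05 over all genes. Without Tgif1 KD replicate 1 or without shControl replicate 2, 3 of the 6 rose.

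The same list split in the overexpression arm. For this and the other lists, adjusted p-values in that arm take the 4 arrays of a group as independent. Replicates 1 and 2, and replicates 3 and 4, however, deviated together as pairs. Over array pair means the calls among all genes fell from 2587 to 802 on Tgif1 OE and from 4388 to 1699 on Tgif2 OE. In Tgif1 OE minus Tgif2 OE they fell from 2439 to 119. Cdkn1c rose on the arrays labelled Tgif1 OE by 1.18 ± 0.13 (9.02 against 7.84 on BirA control, limma adjusted p = 2.10e-05). Cdkn2a fell by 1.05 ± 0.10 (4.50e-06) and Cdkn2d fell by 0.53 ± 0.05 (1.95e-06). Cdkn2b and Cdkn1a also rose, by 0.45 and 0.31 (0.0426 and 0.0183), and both calls were lost without BirA control replicate 2, 3 or 4, when 1 of the 6 rose. The Cdkn2b call was also lost without Tgif1 OE replicate 3 or 4. On the arrays labelled Tgif2 OE, Cdkn2a fell by 0.64 ± 0.10 (1.90e-04), Cdkn2d fell by 0.51 ± 0.05 (1.88e-06), Cdkn1c rose by 0.49 ± 0.13 (0.00943) and Cdkn2b by 0.40 ± 0.15 (0.0472). Relative to the median of all genes these were -0.76, -0.63, 0.37 and 0.28, and the Cdkn2b call was lost after quantile normalization. The rise of Cdkn1c was larger in Tgif1 OE than in Tgif2 OE, by 0.69 (limma adjusted p = 0.00273).

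E2F target genes of S phase entry fell on Tgif1 KD in 5 of 11 measured cases, and 0 rose, against 12.9% and 12.5% of all genes. Cdc6, a loader of the replicative helicase, averaged 9.77 on Tgif1 KD against 10.37 on shControl (-0.60 ± 0.09, limma adjusted p = 1.10e-04), Mcm2, a helicase subunit, 10.51 against 11.09 (-0.58 ± 0.08, 1.07e-04), and Tk1, thymidine kinase, 9.50 against 10.02 (-0.52 ± 0.11, 0.00230). Ccne1 and Pcna fell by 0.51 and 0.22, and the Pcna call was lost without any 1 of the 4 arrays. The other 6, Mcm3, Mcm5, Mcm6, Tyms, Rrm2 and Mybl2, did not pass the test at their brightest probe set, and a second probe set of Mcm6 fell by 0.30 (0.0157). Of the 11, 2 fell on the arrays labelled Tgif1 OE (Mybl2 by 0.73 and Tk1 by 0.26), against 9.51% of all genes. Neither call held without Tgif1 OE replicate 3 or 4 or BirA control replicate 2. At other probe sets on those arrays, Rrm2, a subunit of ribonucleotide reductase, fell by 0.59 at 1416120_at (7.05e-04) and by 0.24 at 1448226_at (0.0112). Mcm3 fell by 0.31 at 1426653_at (0.00490) and did not pass the test at its other probe sets. The second probe set of Mybl2 differed by -0.26 (0.453). On the arrays labelled Tgif2 OE, 4 of 11 rose (Mcm3, Mcm6, Cdc6 and Ccne1, by 0.21 to 0.26) and 0 fell, against 28.7% and 6.69% of all genes. After quantile normalization, in contrast, 0 rose and 1 fell. Rrm2 fell there at 1416120_at by 0.30 (0.0314).

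**Figure D5:**
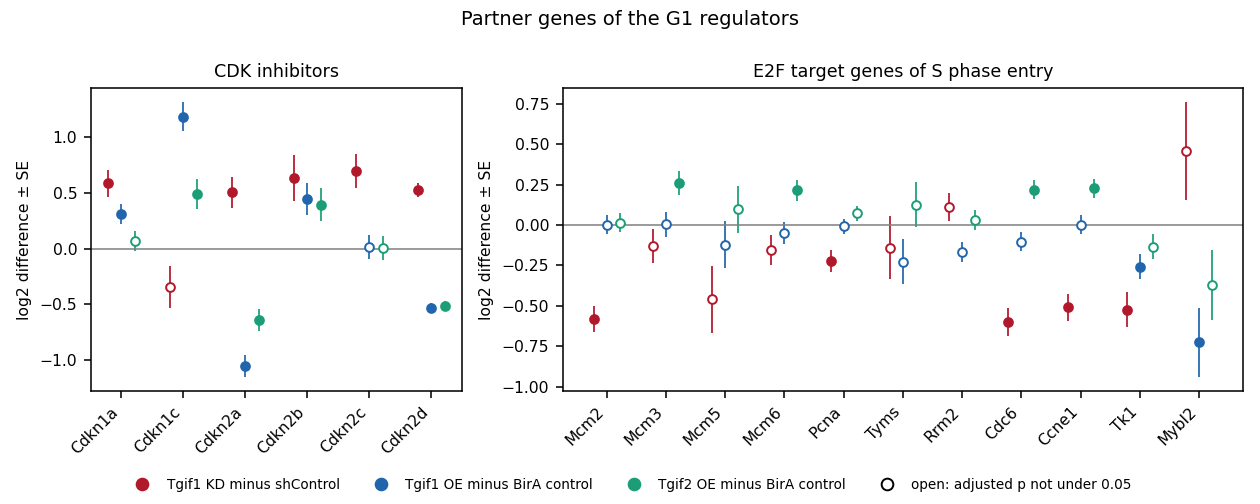
Log2 difference ± SE (vertical axes) of the 6 CDK inhibitors and the 11 E2F target genes in Tgif1 KD minus shControl, Tgif1 OE minus BirA control and Tgif2 OE minus BirA control, with filled points for an adjusted p under 0.05. Cdkn2a and Cdkn2d lie above 0 on Tgif1 KD and below 0 on both sets of arrays labelled as overexpression, and Cdc6, Mcm2, Tk1 and Ccne1 lie near -0.60 to -0.51 on Tgif1 KD.

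Of 7 measured E2F and DP genes, 3 fell on Tgif1 KD and 0 rose at the brightest probe set, against 12.9% and 12.5% of all genes. E2f3 averaged 5.83 against 6.36 on shControl (-0.53 ± 0.13, limma adjusted p = 0.00610), E2f8 9.31 against 9.71 (-0.40, 0.00436) and E2f1 7.86 against 8.21 (-0.34, 0.0352), and without shControl replicate 2 or without Tgif1 KD replicate 1, 1 of the 7 fell. E2f6, a repressor of the family, rose by 0.59 on the arrays labelled Tgif1 OE (6.55e-04) and by 0.59 on those labelled Tgif2 OE (4.47e-04), where E2f5 also rose, by 0.61 (0.0114). At its brightest probe set E2f5 differed by 0.60 on Tgif1 KD minus shControl and did not pass the test (0.0808), but at 1460207_s_at it rose by 0.57 (0.00117) there and by 0.41 (0.00143) on the arrays labelled Tgif1 OE. Among cyclin E, cyclin A and their kinase partners (12 measured), 3 rose and 2 fell on Tgif1 KD, against 12.5% and 12.9% of all genes. Both counts were smaller when shControl replicate 2 was left out. The probe sets disagreed here: Ccnh, the cyclin partner of Cdk7, rose by 0.28 at its brightest probe set and fell by 0.62 at 1418585_at (2.12e-04), and Cdk7 differed by -0.13 at its brightest and fell by 0.65 at 1424257_at (4.21e-04). Ccnh thus passed the test in both directions, at different probe sets. The 2 cyclin E genes moved apart: Ccne2 rose by 0.74 ± 0.16 (0.00230) and Ccne1 fell by 0.51 ± 0.08 (3.70e-04). Mnat1, a subunit of the CDK-activating kinase, fell by 0.46 (1.54e-04) on the arrays labelled Tgif1 OE. Ccne2 rose there by 0.37 (0.0276), a call lost without replicate 3 or 4 of either group. Ccnh rose there by 0.56 at 1418585_at (4.92e-05) and Wee1 fell by 0.43 at 1416774_at (0.00788). At their brightest probe sets these 2 genes differed by 0.01 and 0.04. On the arrays labelled Tgif2 OE, Ccnh rose by 0.59 at 1418585_at (1.96e-05).

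In the same list, 5 rose and 2 fell on the arrays labelled Tgif2 OE, against 28.7% and 6.69% of all genes. After quantile normalization 0 rose and 3 fell. Among genes for the turnover of G1 regulators (11 measured), 1 rose and 2 fell on Tgif1 KD, against 12.5% and 12.9% of all genes. Cul4a rose by 0.55 (limma adjusted p = 0.00770), Skp1 fell by 0.28 (0.0124) and Gsk3b, a kinase known to phosphorylate cyclin D1, fell by 0.62 (0.0495). Cul3, a scaffold of ubiquitin ligases, differed by -0.17 at its brightest probe set, which did not pass the test, and fell by 1.59 at 1422795_at (1.18e-08) and fell by 1.67 at 1450756_s_at (9.38e-08). Counted at the brightest probe set and without Tgif1 KD replicate 1 or 2 or shControl replicate 2, 0 of the 11 fell, and without Tgif1 KD replicate 2 or shControl replicate 1, 0 rose. In this list 7 rose and 1 fell on the arrays labelled Tgif2 OE, against 28.7% and 6.69% of all genes. After quantile normalization 2 rose and 1 fell on those arrays. Skp2, which targets the Cdkn1b protein for degradation, rose there by 0.30 ± 0.06 (9.34e-04), or 0.18 relative to the median of all genes. It also rose at 1436000_a_at (0.30, 0.00464) and 1460247_a_at (0.32, 7.37e-04). It did not pass the test at 1437033_a_at (0.20, 0.206), 1425072_at (0.04, 0.877) or 1449293_a_at (-0.08, 0.628). On the arrays labelled Tgif1 OE, 1 rose and 1 fell (Cul4a by 0.40 and Fbxo31 by 0.26), against 11.4% and 9.51% of all genes. The Fbxo31 call was lost without Tgif1 OE replicate 1 or 2 or BirA control replicate 3 or 4.

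Other measures moved with the groups, and their part in the results was not tested. The 6 ES cell markers averaged 12.31 to 12.51 log2 on the arrays labelled Tgif1 OE and 12.54 to 12.81 on those labelled Tgif2 OE, against 12.55 to 12.72 on BirA control, and 12.94 to 12.98 on Tgif1 KD against 12.77 to 12.78 on shControl. Of the 6, 3 (Nanog by 0.69, Zfp42 by 0.35 and Dppa5a by 0.15) fell on the arrays labelled Tgif1 OE (limma adjusted p = 0.0103, 0.0152 and 0.0403), and 0 passed the test on Tgif1 KD. Trophectoderm markers (4 of 4 measured: Cdx2, Eomes, Krt8 and Krt18) averaged 7.97 to 8.68 log2 on the arrays labelled Tgif1 OE and 7.42 to 8.51 on those labelled Tgif2 OE, against 6.72 to 6.90 on BirA control, and 6.89 to 6.99 on Tgif1 KD against 7.11 to 7.15 on shControl. Fibroblast markers (8 of 8) averaged 5.20 to 5.49 on Tgif1 OE and 5.27 to 5.42 on Tgif2 OE against 5.03 to 5.18 on BirA control, and 5.30 to 5.37 on Tgif1 KD against 5.39 to 5.46 on shControl. Blood cell markers (4 of 5) averaged 5.93 to 6.05 on Tgif1 OE and 5.83 to 6.01 on Tgif2 OE against 6.20 to 6.49 on BirA control, and 6.49 to 6.56 on Tgif1 KD against 6.29 to 6.35 on shControl. Primitive endoderm markers (4 of 4) lay between 4.42 and 4.86 on all arrays. The difference between the 5′ and 3′ probe sets of Gapdh, a sign of RNA quality, was -0.10 to -0.08 on Tgif1 KD against -0.22 to -0.21 on shControl, and -0.34 to -0.02 on the arrays labelled Tgif1 OE and -0.19 to -0.04 on those labelled Tgif2 OE against -0.13 to -0.04 on BirA control. For Actb it was -0.52 to -0.49 on Tgif1 KD against -0.67 to -0.61 on shControl, and -0.67 to -0.45 on Tgif1 OE and -0.53 to -0.39 on Tgif2 OE against -0.57 to -0.46 on BirA control. In the overexpression arm replicates 1 and 2 stood apart from 3 and 4 in all 3 groups for Cdk2 and Rbl2 (above, as in 12.5% of genes) and for Ccnd1, Cdk6 and Cdkn1b (below, as in 13.6% of genes).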

How the data were processed

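The 16 arrays were Affymetrix Mouse 430A 2.0 arrays of total RNA from J1 ES cells. Per the submitters' processing notes the values were made with RMA, and limma is named for the Tgif2 OE samples. Their version was not given in the sources used here. What the authors deposited are normalized log2 intensities of probe sets, which ran from 2.19 to 14.79. The arrays hold 22690 probe sets. A single gene symbol stood beside 20380 of these, several beside 691 and none beside 1555, and 64 were controls, per the platform annotation supplied with the data. No detection calls were used and no probe set was left out for low signal.

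Differences come from limma 3.58.1 (R 4.3.3), in a single linear model on the log2 scale over all 16 arrays, with moderated tests and Benjamini-Hochberg adjustment over 12393 genes, each read at the brightest of its probe sets (4956 genes had more than 1). The threshold was an adjusted p under 0.05. Other probe sets come from a fit to all 20380. The fit was tested on simulated data. The 10 genes, the pathway lists and the markers were chosen with earlier results of these data known. All 10 genes are named, with at most the 3 largest changes per list and comparison past the threshold and list members behind a count; further list members named beside these counts were chosen after their values were seen.

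Tgif2 OE arrays had column medians 0.08 log2 above those of the other 12, so changes are also given after subtracting the median difference over genes (0.12 against BirA control). The comparisons were Tgif1 KD with shControl, Tgif1 OE and Tgif2 OE with BirA control, Tgif1 OE with Tgif2 OE, and shControl with BirA control; those that share BirA control arrays are not independent. Same-numbered arrays of the overexpression groups deviated together from their group means (r of 0.32 to 0.56, 12 comparisons), and so did arrays of the other number of the same pair (0.32 to 0.58), while arrays of the other pair were opposed (-0.57 to -0.32). In the knockdown arm same-numbered arrays did not deviate together. What the pairs of replicates 1 and 2 and of 3 and 4 stand for is not stated in the labels. Alternatives were quantile normalization, other choices of probe set, a filter on dim genes, a trended variance, the replicate block, array pairs as a block, and leaving out each array. Precision is limited by how many arrays there are.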

Additional observations from a re-analysis of the deposited data

Results flagged for a closer look

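Among 69 groups of 4 arrays examined (the 23 probe sets in 3 groups), 1 held an array far from the others: Cdkn1b at 1434045_at on the arrays labelled Tgif1 OE, where replicate 2 read 6.85 and the other 3 read 7.20 to 7.21. How often such an array would arise by chance was not tested.

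Ccnd3 differed by -0.93 log2 in Tgif1 OE minus Tgif2 OE, and the Tgif1 OE values are those taken to have chosen the gene. In the knockdown and the overexpression arm, 2 of the 10 genes differed from their controls in opposite directions without overlap at their brightest probe set. Ccnd3 differed by 0.79 on Tgif1 KD minus shControl and by -1.19 on Tgif1 OE minus BirA control. Cdkn1b differed by 0.47 on Tgif1 KD minus shControl, by -0.70 on Tgif1 OE minus BirA control and by -1.12 on Tgif2 OE minus BirA control. At its other probe set, 1419497_at, both groups labelled as overexpression overlapped BirA control. The difference between these effects was not tested. Of all genes, 11.3% were opposed in this way between Tgif1 KD and Tgif1 OE, and 15.8% between Tgif1 KD and Tgif2 OE.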

How the results depend on the processing

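For Tgif2 OE minus BirA control, Tgif1 OE minus Tgif2 OE and shControl minus BirA control, the 10 genes' log2 differences had 574 values under alternatives. Of these, 508 kept their direction and their side of the threshold, 31 passed it newly, 9 no longer passed it, 24 turned round with neither value past it, and 2 turned round with 1 of the values past it. The 2 were shControl minus BirA control with replicates 3 and 4 alone, Cdk2 at 0.28 against -0.02 over all arrays and Rbl2 at 0.49 against -0.15; BirA control replicates 1 and 2 read higher than 3 and 4 in both. Ccnh turned to -0.0203 on Tgif1 KD minus shControl when its probe sets were averaged.

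Counts on Tgif1 KD and Tgif1 OE are description only, since their values are taken to have chosen the genes. Replicate number as a block gave 9 of the 10 genes called on Tgif1 KD (5 without it), where same-numbered arrays did not deviate together. On Tgif1 OE it gave 7 (4), on Tgif2 OE 4 (2) and in Tgif1 OE minus Tgif2 OE 4 (1). Of all 12393 genes it called 4235 on Tgif1 KD (3146), 3548 on Tgif1 OE (2587) and 5552 on Tgif2 OE (4388). In Tgif1 OE minus Tgif2 OE it called 3688 of all genes (2439). With pairs of arrays as a random block the counts were 7, 4 and 3 in the overexpression arm. Of all genes, 3763 were called on Tgif1 OE, 5767 on Tgif2 OE and 4026 in Tgif1 OE minus Tgif2 OE. Alternatives added after seeing the data took pairs within each group as a random block (2 of the 10 on Tgif1 OE and 1 on Tgif2 OE; 1419, 2490 and 589 of all genes on Tgif1 OE, on Tgif2 OE and between them) and array pair means (1 and 1 of the 10; 802, 1699 and 119 of all genes; 1438 for shControl minus BirA control). With pairs within each group as a random block, the estimated correlation of paired arrays was 0.55, so paired arrays were not taken as independent. Array pair means leave fewer units, which by itself can lower the counts.

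Only the arrays of the arm gave 8 of the 10 on Tgif1 KD (4289 of all genes). Replicates 1 and 2 alone gave 8 on Tgif1 OE (3241 of all genes) and 4 in Tgif1 OE minus Tgif2 OE (3032). They gave 7 in shControl minus BirA control (4527 of all genes). Replicates 3 and 4 alone gave 5 on Tgif2 OE (4526) and 8 in shControl minus BirA control (4082). Quantile normalization gave 4 on Tgif2 OE (3331 of all genes) and 2 in Tgif1 OE minus Tgif2 OE (1235). Over all genes it split the Tgif2 OE calls 1715 higher and 1616 lower, against 3559 and 829 as deposited, and the Tgif1 OE minus Tgif2 OE calls 671 and 564, against 279 and 2160. Without the dimmest genes 8 of the 10 were tested, Rbl2 and Cdk6 not being among them, and 1 was called on Tgif2 OE. Of the 8262 genes left, 3502 were called there. Testing every probe set gave 3847 calls in Tgif1 OE minus Tgif2 OE and 4041 in shControl minus BirA control. The cause of these shifts was not tested.

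Leaving out 1 array at a time gave 5 of the 10 in every case on Tgif1 KD, 3 in every case on Tgif1 OE, 1 to 3 on Tgif2 OE, 1 to 2 in Tgif1 OE minus Tgif2 OE and 2 to 4 in shControl minus BirA control. Over all genes it gave 2012 to 2161 on Tgif1 KD (3146 over all arrays) and 1088 to 2616 in shControl minus BirA control (2619), lowest in both without shControl replicate 2. On Tgif1 OE it gave 2053 to 2372 of all genes (2587) and on Tgif2 OE 3750 to 4215 (4388). In Tgif1 OE minus Tgif2 OE it gave 1729 to 2121 (2439). With 2 arrays in a knockdown group, leaving out 1 assumes that the other varies like the rest.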
